A study of Mus musculus with 6 samples.

Results

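The genes described here encode the machinery that imports proteins into mitochondria, measured by RNA sequencing in 6 mouse hearts. They were chosen by name: every protein-coding gene whose mouse symbol starts with Tomm or Timm, together with Samm50, Mtx1, Mtx2, Pam16, Dnajc19, Grpel1, Grpel2 and Hspa9. The rule gave 33 of the 20254 genes in the deposited table. The annotation holds 34 such genes, and Tomm20l was not analysed here. The study compared hearts of wild-type (WT) C57BL/6 mice with hearts of C57BL/6 mice in which Trdn-as was knocked out (KO), with 3 hearts in each genotype. Trdn-as is a long noncoding RNA antisense to Trdn, the gene of triadin, which anchors calcium release channels in the sarcoplasmic reticulum. Replicates 1 and 2 of each genotype were taken at 14 months of age and replicate 3 at 5 months. The labels do not give the kind of knockout allele, the sex of the mice or the litters, and p-values measure only the spread between these 6 hearts.

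Nearly all mitochondrial proteins are encoded in the nucleus and made in the cytosol. The TOM complex of the outer membrane receives them through receptors (Tomm20, Tomm22, Tomm70a) and passes them through a channel (Tomm40) held together by small subunits. From there the SAM complex inserts barrel-shaped proteins into the outer membrane, small TIM chaperones carry hydrophobic proteins across the intermembrane space to the TIM22 complex, and the TIM23 complex takes up proteins with a cleavable presequence. A motor built around the matrix HSP70 (Hspa9) pulls the presequence proteins into the matrix. Heart muscle is rich in mitochondria, and most of the enzymes of its oxidative metabolism enter by these routes.

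The values in the table are normalised gene-level values, and their total per heart ranged from 19.8 to 23.5 in units of 1e6. Mitochondrially encoded genes took 44.3 to 49.4% of that total in the 14-month hearts. At 5 months they took 40.0% in the WT heart and 41.6% in the KO heart. Trdn read 5702 and 5599.8 in the 14-month WT hearts, 3429 and 3459.7 in the 14-month KO hearts, 9104 at 5 months in WT and 5606 at 5 months in KO, so all KO hearts lay below the WT hearts of the same age. Its fitted difference was −0.71 on the log2 scale (SE 0.103), with an adjusted p of 0.261 by limma, and Trdn-as itself was not analysed here. The 8 cardiomyocyte markers summed to between 702609 and 780074 in the 14-month hearts, to 1300630 in the 5-month WT heart and to 789352 in the 5-month KO heart. Single markers of this list differed in direction. By the limma fit for age 6 were higher at 5 months and 2 lower. At an adjusted p under 0.05, 4 were called higher and 1 lower, against 16.0% and 17.7% of all genes. The 6 endothelial markers summed to between 12118 and 15696 at 14 months and to 8807 (WT) and 7797 (KO) at 5 months, and the 4 atrial genes to between 12591 and 23359 at 14 months and to 60737 (WT) and 38743 (KO) at 5 months. None of the listed markers was at 0 in every heart. The part of these markers in the results below was not tested, and in whole hearts fewer cells of a type and less RNA per cell cannot be told apart. The sum of 4 Y-linked genes was 54.9 and 82.2 in the replicate 2 hearts and 2496 to 4482 in the other 4 hearts.

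Levels between import genes were compared as normalised value per kilobase of the median protein-coding transcript. With that length, the highest mean levels at 14 months were 3442 for Timm23, the presequence channel, and 3107 for Hspa9. Timm17a, a TIM23 subunit, followed at 2259 per kilobase. The order depends on the transcript chosen: Timm17a ranged from 197 with its longest to 3070.0 with its shortest, and Tomm20 from 368 to 3941, which is above Timm23. Tomm5 read 1414 and Timm8b 1034 per kilobase, and Grpel2, a nucleotide exchange factor of the motor, had the lowest level of the tested genes at 63.1 per kilobase. With the longest transcripts Timm9 (51.7) and Timm10b (53.0) lay below Grpel2 (62.5). Timm8a2, a small TIM paralogue, was at 0 in 4 hearts and at 0.861 and 0.913 in the replicate 2 heart of WT and the replicate 1 heart of KO. It did not pass the filter, a value of at least 10 in at least 3 hearts, which left 32 import genes among the 13823 genes tested.

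The comparison of ages asked how the import genes differed between the 2 hearts of 5 months and the 4 hearts of 14 months, with genotype as a covariate. Of the 32 tested import genes, 19 were higher at 5 months and 2 were lower at an adjusted p under 0.05 (limma, Benjamini-Hochberg over all genes tested). Over all 13823 genes, 33.7% passed that threshold, 16.0% as higher and 17.7% as lower at 5 months. The median log2 difference of the import genes was 0.63, with a range of −0.80 to 2.54, and the median of all tested genes was −0.022. Both 5-month hearts lay above every 14-month heart for 22 of the 32 import genes, against 25.0% of all genes, and below every 14-month heart for 2, against 25.7% of all genes. The values of the 2 ages overlapped for the remaining 8. Without the replicate 2 hearts, which were low in Y-linked values, 16 import genes were called higher and 1 lower at 5 months, against 21.8% of all genes called. The summed value of the import genes was 31421 to 32868 in the 14-month hearts, 49396 in the 5-month WT heart and 39713 in the 5-month KO heart. As a share of the total over nuclear genes, this was 0.288 to 0.291% at 14 months, 0.350% in the 5-month WT heart and 0.344% in the 5-month KO heart. Each genotype has 1 heart at 5 months, always replicate 3, so the age cannot be told apart from anything else those hearts shared.

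**Figure D1:**
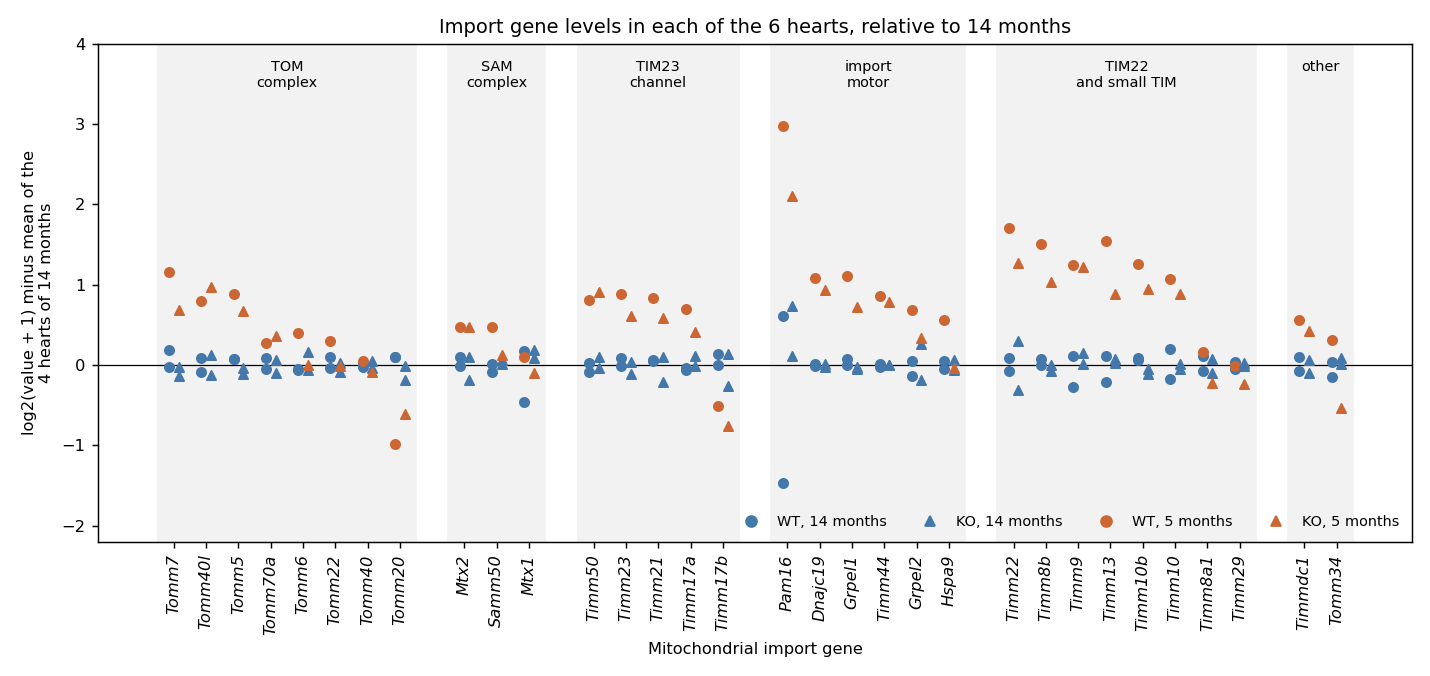
Each point is 1 heart. The vertical axis gives log2(value + 1) of an import gene minus its mean over the 4 hearts of 14 months, circles are WT, triangles are KO, blue is 14 months and orange is 5 months. Both orange points lie above all blue points for 22 of the 32 genes and below them for Tomm20 and Timm17b.

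Among the 8 tested genes of the TOM complex, 3 were higher at 5 months (Tomm7, Tomm40l and Tomm5), 1 was lower (Tomm20) and 4 did not pass the test. Over all genes, 16.0% were called higher and 17.7% lower. Tomm20 is the receptor that recognises presequences (GRCm38 chr8:126930667-126945844, minus strand). Its values were 1933 and 1927 in the 14-month WT hearts, 1581 and 1779 in the 14-month KO hearts, 905 at 5 months in WT and 1179 at 5 months in KO. Both 5-month hearts lay below every 14-month heart, and the difference of 5 minus 14 months was −0.80 (SE 0.153, adjusted p = 0.00622) on the log2 scale by limma, a level at 5 months of 0.575-fold (95% interval 0.450 to 0.733) that at 14 months. The processed pseudogene Gm14494 shares 7.09% of the 31-base words of Tomm20 and was low in the same hearts, at 60.6 to 75.1 at 14 months and at 3.29 (WT) and 0 (KO) at 5 months. The small subunit Tomm7, which acts on the assembly state of the complex, went the other way. Its values were 399 and 464 in the 14-month WT hearts, 372 and 399.9 in the 14-month KO hearts, 915 at 5 months in WT and 656 at 5 months in KO, all lower at 14 months than at 5 months, with a difference of 0.93 (SE 0.139, adjusted p = 0.00243). Tomm5, another small subunit, read 984 and 978 in the 14-month WT hearts, 907 and 859 in the 14-month KO hearts, 1723 at 5 months in WT and 1486 at 5 months in KO. The 5-month hearts were again the highest, with a difference of 0.78 (SE 0.109, adjusted p = 0.00186). Tomm40l is a second gene for the channel protein, and its values were 725 and 821 in the 14-month WT hearts, 839.9 and 710.2 in the 14-month KO hearts, 1347 at 5 months in WT and 1519 at 5 months in KO, a difference of 0.89 (SE 0.130, adjusted p = 0.00218). Of its 31-base words, 65.1% lie on the opposite strand of Nr1i3, which read 0 to 1.04 in all 6 hearts.

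The channel gene Tomm40 itself had overlapping values at the 2 ages, 634 and 618 in the 14-month WT hearts, 654 and 617 in the 14-month KO hearts, 654 at 5 months in WT and 591 at 5 months in KO, and a log2 difference of −0.02 (SE 0.118, adjusted p = 0.911). The receptors Tomm22 and Tomm70a and the small subunit Tomm6 had log2 differences of 0.14, 0.32 and 0.20, with adjusted p of 0.402, 0.0719 and 0.359. The receptors of the complex thus gave 1 gene past the test, Tomm20, which was lower at 5 months. Tomm6 shares 78.3% of its 31-base words with Gm21981, which read 3.70 to 24.2.

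Of the 3 genes of the SAM complex, 1 passed the test, near the 33.7% of all genes that did. Mtx2, a metaxin of the cytosolic face, read 1118 and 1208 in the 14-month WT hearts, 993 and 1207 in the 14-month KO hearts, 1565 at 5 months in WT and 1565 at 5 months in KO. The 5-month hearts were highest, and the log2 difference was 0.47 (SE 0.126, adjusted p = 0.0234). This call was lost without WT replicate 1 (adjusted p = 0.0720), without KO replicate 1 (0.0668) and without KO replicate 3 (0.0630), and in 4 other settings. Samm50, the barrel-shaped core of the complex, had values of 2558 and 2387 in the 14-month WT hearts, 2657 and 2569.6 in the 14-month KO hearts, 3524 at 5 months in WT and 2777 at 5 months in KO. The ages did not overlap, but the difference of 0.30 (SE 0.132, adjusted p = 0.116) did not pass the test. For Mtx1, the partner of Mtx2, the values overlapped, at 201 and 311 in the 14-month WT hearts, 294 and 315 in the 14-month KO hearts, 295 at 5 months in WT and 258 at 5 months in KO, and the difference was 0.0017 (SE 0.208, adjusted p = 0.996).

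All 5 genes of the TIM23 channel passed the test, against 33.7% of all genes, 4 as higher and Timm17b as lower at 5 months. Timm23 forms the presequence channel (GRCm38 chr14:32180162-32201898, minus strand). It read 2841 and 2649 in the 14-month WT hearts, 2738 and 2468 in the 14-month KO hearts, 4917 at 5 months in WT and 4094 at 5 months in KO, a difference of 0.75 (SE 0.118, adjusted p = 0.00296) or 1.68-fold (95% interval 1.39 to 2.03). Its transcripts share 88.4% of their 31-base words with Gm10273, which was not analysed here, so the value may hold reads of both. Timm50, the receptor that receives presequences from the TOM complex, was similarly separated by age, with values of 404 and 372 in the 14-month WT hearts, 385 and 426 in the 14-month KO hearts, 695 at 5 months in WT and 747 at 5 months in KO and a difference of 0.86 (SE 0.123, adjusted p = 0.00205). Timm21 links TIM23 to the TOM complex and the respiratory chain. Its values were 508 and 510.1 in the 14-month WT hearts, 422 and 527 in the 14-month KO hearts, 878 at 5 months in WT and 735 at 5 months in KO, with a difference of 0.71 (SE 0.135, adjusted p = 0.00610). The ages did not overlap for any of these genes.

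Timm17a and Timm17b are alternative subunits of the same channel, and they differed in opposite directions. Timm17a read 1395 and 1381 in the 14-month WT hearts, 1419 and 1552 in the 14-month KO hearts, 2324 at 5 months in WT and 1904 at 5 months in KO, higher at 5 months by 0.55 (SE 0.129, adjusted p = 0.0140). Timm17b (GRCm38 chrX:7899357-7908351, plus strand) read 358 and 393 in the 14-month WT hearts, 299 and 393 in the 14-month KO hearts, 251 at 5 months in WT and 211 at 5 months in KO, lower at 5 months with a difference of −0.64 (SE 0.158, adjusted p = 0.0177). Both calls were among the less stable ones: that of Timm17a was lost without WT replicate 3 (adjusted p = 0.0506) and that of Timm17b without KO replicate 3 (adjusted p = 0.0631) and with replicates 1 and 3 alone (−0.50, adjusted p = 0.170). With the trends of value on transcript length and GC content removed from each library, the difference of Timm17a was 0.094 (adjusted p = 0.561).

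In the import motor, 4 of 6 genes were higher at 5 months, against 16.0% of all genes, and 2 did not pass the test. Dnajc19 encodes a J-domain protein tied to the motor, and its inherited loss is a known cause of dilated cardiomyopathy. Its values were 474 and 483 in the 14-month WT hearts, 470.5 and 483 in the 14-month KO hearts, 1016 at 5 months in WT and 917 at 5 months in KO, a difference of 1.01 (SE 0.116, adjusted p = 0.000891) or 2.02-fold (95% interval 1.68 to 2.43). Timm44 anchors the matrix HSP70 at the channel. It read 896 and 916 in the 14-month WT hearts, 909 and 911 in the 14-month KO hearts, 1643 at 5 months in WT and 1564 at 5 months in KO, with a difference of 0.82 (SE 0.109, adjusted p = 0.00152), and the ages did not overlap. Grpel1, the main nucleotide exchange factor, read 1046 and 991 in the 14-month WT hearts, 964 and 975 in the 14-month KO hearts, 2137 at 5 months in WT and 1635 at 5 months in KO, with a difference of 0.91 (SE 0.122, adjusted p = 0.00158). Its paralogue Grpel2 had values of 259.7 and 228 in the 14-month WT hearts, 219.8 and 301 in the 14-month KO hearts, 404 at 5 months in WT and 316 at 5 months in KO. The 5-month hearts were again the highest, but with a wider spread, and the difference was 0.51 (SE 0.185, adjusted p = 0.0653). Hspa9, the matrix HSP70 and the gene with the largest value of the set, made up 23.3 to 30.4% of the summed import value. It read 9788 and 9131 in the 14-month WT hearts, 9065 and 9908 in the 14-month KO hearts, 13989 at 5 months in WT and 9243 at 5 months in KO. Only the 5-month WT heart stood above the 14-month range, and the age difference was 0.26 (SE 0.158, adjusted p = 0.231).

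Pam16 is the J-like regulator that pairs with the J-domain protein of the motor (GRCm38 chr16:4616464-4624988, minus strand), and on its own value it had the largest and the least precise age difference. Its values were 14.8 and 65.8 in the 14-month WT hearts, 46.3 and 71.4 in the 14-month KO hearts, 342 at 5 months in WT and 187 at 5 months in KO. The replicate 1 heart of WT was far below the other hearts, and the log2 difference was 2.54 (SE 0.606, adjusted p = 0.0164). The call was lost without WT replicate 3, where the difference was 1.69 (adjusted p = 0.201), and without KO replicate 1, where it was 2.53 (adjusted p = 0.0670). Pam16 shares 89.1% of its 31-base words with Gm9803, and the sources used here do not say how reads were divided between them. The sum of both was 264 and 296 in the 14-month WT hearts, 271 and 276 in the 14-month KO hearts, 692 at 5 months in WT and 495 at 5 months in KO, so the low heart was not apart from the others in the sum. The age difference of the sum was 1.08 (SE 0.151, adjusted p = 0.00185), below that of Timm22.

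The genes of the TIM22 complex and the small TIM chaperones gave 6 of 8 as higher at 5 months and none as lower. Over all genes these shares were 16.0% and 17.7%. The 6 higher genes have short transcripts, with median lengths of 518 to 836 bases. Of all genes, 33.0% were called higher under 700 bases and 28.1% from 700 to 1500 bases. Timm8b, a small TIM chaperone of the intermembrane space (GRCm38 chr9:50603910-50605320, plus strand), had the smallest adjusted p of the set. It read 537 and 564 in the 14-month WT hearts, 533 and 509 in the 14-month KO hearts, 1523 at 5 months in WT and 1099 at 5 months in KO. Both 5-month hearts were well above the 14-month range, with a difference of 1.27 (SE 0.132, adjusted p = 0.000690) or 2.41-fold (95% interval 1.95 to 2.98). Timm9 and Timm10 form the main chaperone hexamer of this space. Timm9 read 142 and 109 in the 14-month WT hearts, 132 and 147 in the 14-month KO hearts, 314 at 5 months in WT and 307 at 5 months in KO, a difference of 1.23 (SE 0.176, adjusted p = 0.00204). Timm10 read 383 and 295 in the 14-month WT hearts, 320.1 and 336 in the 14-month KO hearts, 701 at 5 months in WT and 613 at 5 months in KO, a difference of 0.98 (SE 0.148, adjusted p = 0.00249). Both partners were thus highest in the same 2 hearts. Timm10b, which docks the chaperones on the TIM22 complex, had values of 185 and 181 in the 14-month WT hearts, 161 and 168 in the 14-month KO hearts, 417 at 5 months in WT and 335 at 5 months in KO and a difference of 1.11 (SE 0.142, adjusted p = 0.00134). Timm13, the partner of the Timm8 proteins, read 228 and 284 in the 14-month WT hearts, 278 and 269 in the 14-month KO hearts, 771 at 5 months in WT and 487 at 5 months in KO. The gap between the 5-month hearts was wide here, and the difference was 1.21 (SE 0.196, adjusted p = 0.00319). Timm22, the channel of the carrier route, read 203 and 227 in the 14-month WT hearts, 264 and 172 in the 14-month KO hearts, 701 at 5 months in WT and 519.9 at 5 months in KO, the largest difference of this group at 1.49 (SE 0.201, adjusted p = 0.00163) or 2.81-fold (95% interval 2.04 to 3.88).

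The 2 members of this group that did not pass were Timm29, a subunit of the TIM22 complex, and Timm8a1, whose human counterpart is mutated in a deafness and dystonia syndrome. Timm29 read 854 and 907 in the 14-month WT hearts, 878 and 899 in the 14-month KO hearts, 878 at 5 months in WT and 753 at 5 months in KO, and Timm8a1 read 360.2 and 318 in the 14-month WT hearts, 311 and 352 in the 14-month KO hearts, 375 at 5 months in WT and 285 at 5 months in KO. The ages overlapped for both, with differences of −0.12 (adjusted p = 0.463) and −0.032 (adjusted p = 0.888). Timm8a1 shares 41.8% of its 31-base words with the pseudogene Gm9797, which was listed at 0 in the 4 hearts of 14 months and read 78.8 and 95.5 at 5 months. Their sum was 311 to 360.2 at 14 months and 454 (WT) and 381 (KO) at 5 months, so the ages no longer overlapped, and its difference was 0.31 (SE 0.141, adjusted p = 0.122). The 2 remaining genes have other roles. Timmdc1, an assembly factor of respiratory complex I, read 492 and 439 in the 14-month WT hearts and 482 and 431 in the 14-month KO hearts. At 5 months it read 677 in WT and 615 in KO, a difference of 0.49 (SE 0.127, adjusted p = 0.0213 by limma). This call was lost in 6 of 19 alternative settings. Among them were the fits without WT replicate 2 (adjusted p = 0.0637) or KO replicate 2 (0.0641), and the rescaling to the total of nuclear genes (0.29, adjusted p = 0.132). Without WT replicate 3, which leaves 1 heart of 5 months, the difference was 0.43. Tomm34, a cytosolic co-chaperone, read 248 and 283 in the 14-month WT hearts, 278 and 292 in the 14-month KO hearts, 340.4 at 5 months in WT and 189 at 5 months in KO, and its ages overlapped.

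The promoters of genes that differed in opposite directions are shown because genes for mitochondrial proteins often carry sites for the ETS family factor GABP, for NRF1 and for the oestrogen-related receptors. Windows of 250 bases before to 50 bases after the start were available from RefSeq (GRCm38.p6) for 26 of the 32 tested genes and were searched on both strands. Each line gives the bases just before the RefSeq start of a gene on its own strand, 5′ to 3′, with the words found in capitals. These starts differ from those of the GENCODE gene coordinates given above. The window of Timm8b is chr9:50603801-50603900 (plus strand) and its capitals mark TCAAGGTCA, a word of the kind bound by oestrogen-related receptors, and CCGGAAG, an ETS core. The window of Timm23 is chr14:32201892-32201951 (minus strand) and its capitals mark the ETS core on the other strand. The window of Tomm20, which like Timm17b was lower at 5 months, is chr8:126945922-126946021 (minus strand) and its capitals mark the 10-base NRF1 word, GCGC on each side of any 2 bases.
Timm8b: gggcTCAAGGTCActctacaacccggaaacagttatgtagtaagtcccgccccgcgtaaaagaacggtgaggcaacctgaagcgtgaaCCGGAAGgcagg
Timm23: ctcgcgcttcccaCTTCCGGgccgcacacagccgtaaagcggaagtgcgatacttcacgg
Tomm20: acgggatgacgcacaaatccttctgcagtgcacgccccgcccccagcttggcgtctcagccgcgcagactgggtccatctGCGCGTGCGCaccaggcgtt
The ETS word CCGGAAG was in 11 of the 26 promoters (42.3%), against 19.0% of the 10512 tested genes with a promoter, and in 7 of the 16 promoters of genes called higher at 5 months. The NRF1 word was in 3 of 26 (11.5%, against 14.4%), Tomm20 and the higher genes Timm8b and Pam16, and its strict form with AT as the middle bases in 0 of 26, against 2.25%. The YY1 word AAGATGGC was in 2 of 26 (7.69%, against 5.02%), and TCAAGGTCA was in the promoter of Timm8b alone (3.85%, against 0.314%). The promoter of Timm17b, the other gene called lower at 5 months, held none of these words. The strict form is one of the spellings of the NRF1 word, and a match describes letters, not binding.

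The ratio of 2 related genes within a heart does not depend on a scaling by 1 factor per heart. It can change with quantile normalization or with length and GC trends removed, which act on each gene differently. The values of copies such as Gm9797 were not added to these ratios. Timm17a over Timm17b was 3.90 and 3.51 in the 14-month WT hearts, 4.75 and 3.94 in the 14-month KO hearts, 9.25 at 5 months in WT and 9.01 at 5 months in KO. Timm8b over Timm8a1 was 1.49 and 1.78 in the 14-month WT hearts, 1.72 and 1.44 in the 14-month KO hearts, 4.06 at 5 months in WT and 3.85 at 5 months in KO. Tomm40l over Tomm40 was 1.14 and 1.33 in the 14-month WT hearts, 1.28 and 1.15 in the 14-month KO hearts, 2.06 at 5 months in WT and 2.57 at 5 months in KO. The 2 ages did not overlap in these ratios, and WT and KO hearts of 1 age differed by less than the ages did. An exact two-sided permutation test of 2 against 4 hearts, which leaves genotype aside, gave p = 0.0667 for each of them, the smallest value that its 15 arrangements allow, and 0.111 after Benjamini-Hochberg adjustment over the 5 pairs compared. Grpel1 over Grpel2 was 3.23 to 4.38 at 14 months and 5.18 and 5.29 at 5 months (exact permutation p = 0.133, adjusted 0.167). Mtx2 over Mtx1 was 3.38 to 5.57 at 14 months and 5.30 and 6.07 at 5 months, which overlap (exact permutation p = 0.267, adjusted 0.267).

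**Figure D2:**
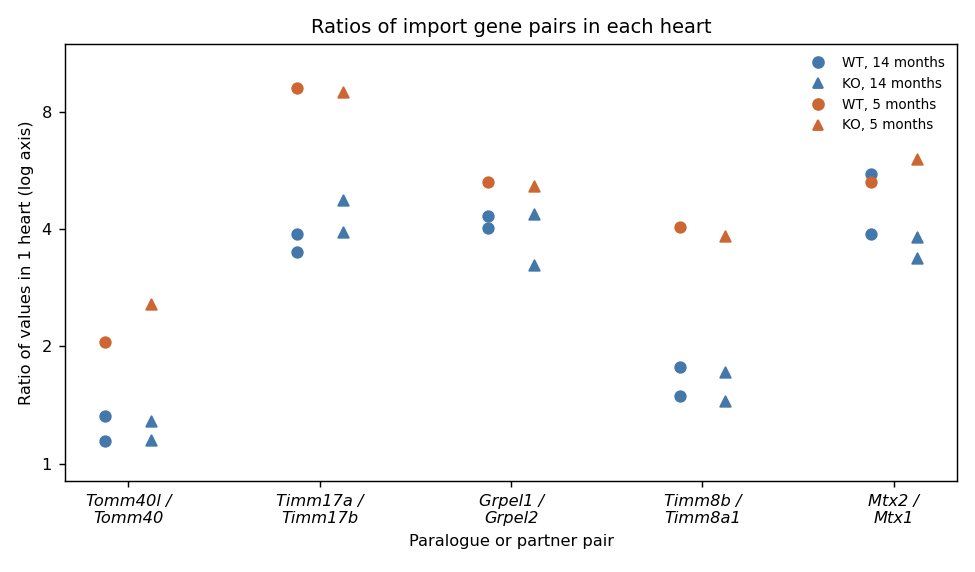
Each point is the ratio of the normalised values of 2 genes in 1 heart, on a log axis. Circles are WT, triangles are KO, blue is 14 months and orange is 5 months, and the orange points lie above the blue ones for every pair but Mtx2 over Mtx1.

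The import genes differ widely in transcript length, and age differences over all genes moved with length. Across the 32 import genes, the Spearman correlation of length with the log2 age difference was −0.52, and across 13779 tested genes with a length it was −0.29. These are correlations across genes of the same 6 hearts, and genes are not independent replicates. In transcripts under 700 bases, all genes had a median of 0.23 and the 8 import genes a median of 1.04. From 700 to 1500 bases the medians were 0.25 for all genes and 0.75 for 9 import genes, and from 1500 to 3000 bases −0.024 and 0.49 for 9 import genes. Above 3000 bases they were −0.22 for all genes and 0.31 for 6 import genes. The import genes thus had the higher median in each length class. Under 700 bases, 33.0% of all genes and 7 of the 8 import genes were called higher at 5 months. From 700 to 1500 bases these were 28.1% and 5 of 9. From 1500 to 3000 bases they were 13.2% and 6 of 9, and above 3000 bases 6.66% and 1 of 6. With length and GC trends removed from each library, a setting chosen after the data were seen, 17 import genes were higher and 2 lower at 5 months, 18 of these 19 called as before, against 24.6% of all genes called, and their median was 0.41.

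**Figure D3:**
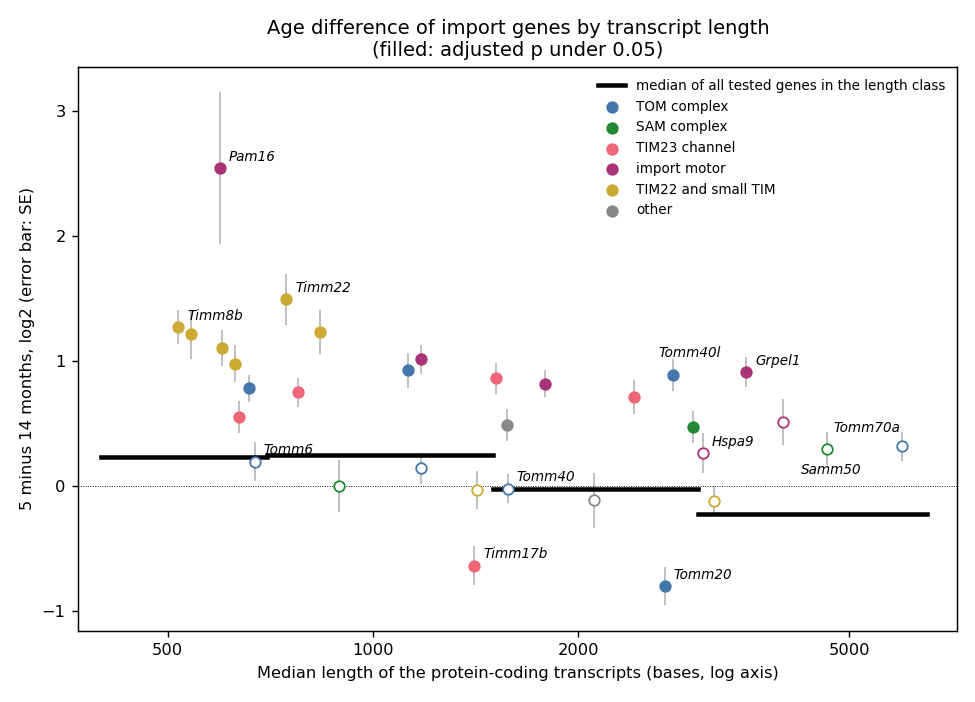
The log2 difference of 5 minus 14 months is plotted for each import gene against the median length of its protein-coding transcripts in bases, on a log axis. Error bars are the limma SE, filled points have an adjusted p under 0.05, and black bars are the medians of all tested genes in 4 length classes, from 0.23 in the shortest to −0.22 in the longest.

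The comparison of genotypes asked whether import genes differed between Trdn-as KO and WT hearts, with age as a covariate. None of the 32 passed an adjusted p under 0.05 (limma), and 0% of all genes did. None had an unadjusted p under 0.05 either, against 841 of the 13823 genes, and limma-voom called 0 import genes too. The smallest adjusted p of the set was 0.745. KO hearts were lower by the fit for 27 of the 32 genes, against 7455 of 13823 over all genes, with a median log2 difference of −0.065 against −0.023 and a range of −0.26 to 0.28. With quantile normalization 22 of the 32 were lower, with a median of −0.045. With scaling by the upper quartile of each heart 25 were lower, with a median of −0.048. With values rescaled to the total of nuclear genes, 14 of the 32 were lower and the median turned to 0.041, where that of all genes was 0.081. The values of the genotypes overlapped for all 32 genes. Over all genes, 2.88% had every KO heart above every WT heart and 2.89% had every KO heart below. The 3 genes with the lowest fitted KO values were Tomm7 at −0.26 (SE 0.131, adjusted p = 0.745), Tomm34 at −0.21 (SE 0.206, adjusted p = 0.781) and Timm8b at −0.21 (SE 0.125, adjusted p = 0.745). On the other side were Pam16 at 0.28 (SE 0.571, adjusted p = 0.896), Mtx1 at 0.12 (SE 0.196, adjusted p = 0.865) and Timm9 at 0.097 (SE 0.166, adjusted p = 0.875). Without WT replicate 1 the sign turned for Pam16 (−0.48) and Mtx1 (−0.10), without KO replicate 2 for Pam16 (−0.060), and without WT replicate 2 for Timm9 (−0.031). For Tomm34 the difference was 0.10 without either replicate 3 heart.

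Read by replicate number, the median of KO minus WT over the 32 genes was −0.061 for replicate 1 and −0.0018 for replicate 2, both of 14 months, and −0.26 for replicate 3, of 5 months. The medians of all genes were −0.010, 0.0039 and −0.059. At 5 months the KO heart was below the WT heart for 28 of 32 import genes, against 54.1% of all genes. With quantile normalization it was below for 25 of 32, against 52.17% of all genes. With scaling by the upper quartile of each heart it was below for 26 of 32, against 50.85%. With values rescaled to the total of nuclear genes it was below for 14 of 32, against 33.1% of all genes. In that scaling the median turned to 0.027, where that of all genes was 0.22, and the difference rests on 1 heart of each genotype. The 8 cardiomyocyte markers had a median of −0.54 in the same pair of hearts, and all 8 were lower in the KO heart. As deposited, the medians of other lists were −0.68 for fibroblast, −0.67 for macrophage, −0.74 for smooth muscle and pericyte and −0.70 for atrial markers. They were −0.27 for endothelial, −0.76 for adipocyte, −2.18 for red cell and 0.15 for skeletal muscle markers. The marker lists were not rescaled to the total of nuclear genes.

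**Figure D4:**
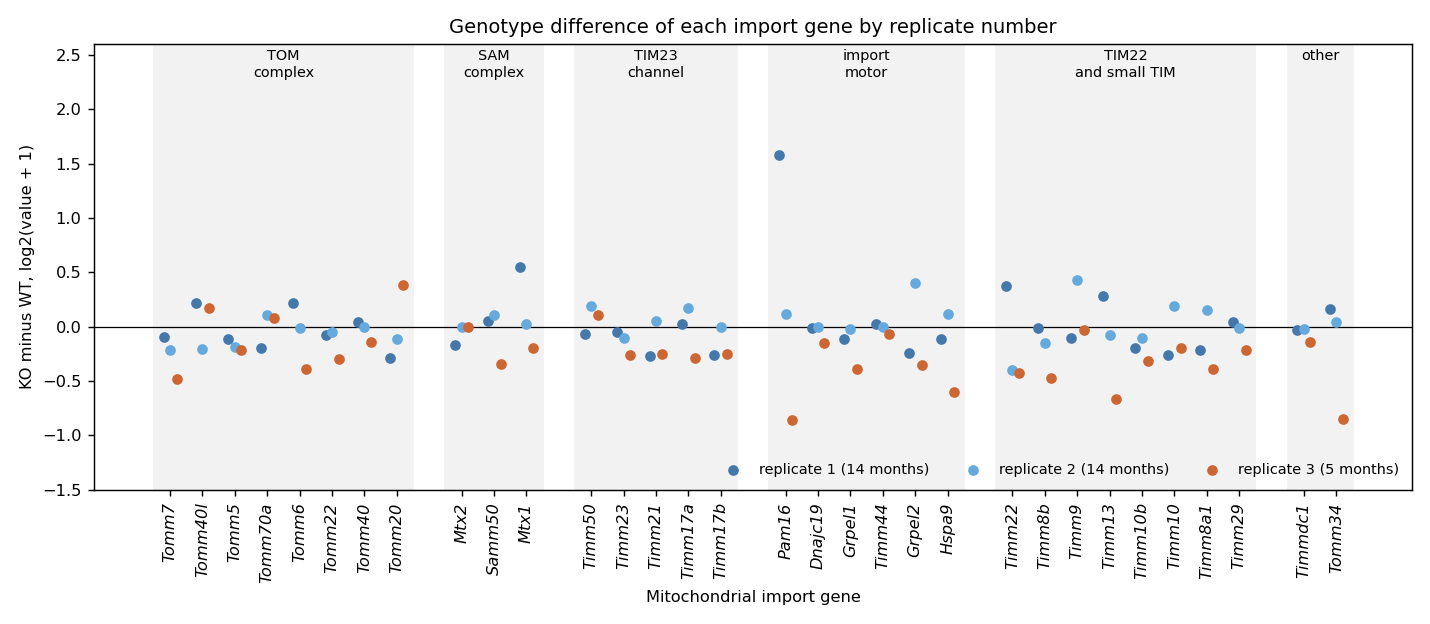
Each point is the log2(value + 1) of the KO heart minus that of the WT heart with the same replicate number, for 1 import gene. Blue shades are the replicates of 14 months and orange is replicate 3 of 5 months, whose points lie under 0 for 28 of the 32 genes as deposited. The number under 0 was 25 with quantile normalization, 26 with upper-quartile scaling and 14 when values are rescaled to the total of nuclear genes.

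Whether the genotype difference itself differed between ages was tested by the interaction of genotype and age, which leaves 2 residual degrees of freedom. None of the 32 import genes passed (limma), against 2.08% of all genes. An unadjusted p under 0.05 was found for 6 of the 32, against 3211 of the 13823 genes. The interaction was negative for 27 of the 32, with a median of −0.21 against −0.050 over all genes. It was negative for 24 with quantile normalization and for 27 with upper-quartile scaling. With values rescaled to the total of nuclear genes it was negative for 14 of the 32, with a median of 0.059 against 0.22. Hspa9 came closest, at −0.60 (adjusted p = 0.0771): its 5-month level lay above the 14-month mean by 0.57 on the log2 scale in WT and was −0.036 from it in KO. This interaction was −0.33 (adjusted p = 0.171) with the nuclear total and −0.30 (adjusted p = 0.283) with quantile normalization. For Tomm34 the interaction was −0.95 (adjusted p = 0.0829), with age differences of 0.36 in WT and −0.59 in KO, and −0.68 (adjusted p = 0.145) with the nuclear total. Tomm20 had the largest positive interaction, 0.58 (adjusted p = 0.110), its values at 5 months being lower by less in KO (−0.51) than in WT (−1.09). It passed with values rescaled to the total of nuclear genes, at 0.86 (adjusted p = 0.0366), where 5.43% of all genes were called.

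Other genes of import, processing, cristae organisation and protein quality control were read from a separate list of 34, of which 33 were tested. At 5 months 15 were higher and none lower (limma), against 16.0% and 17.7% of all genes, with a median of 0.49, and 0 of 33 passed by genotype. The interaction passed for 1, Dnajc15, a paralogue of Dnajc19, at −0.89 (adjusted p = 0.0465), named here after its value was seen. That call was lost with the nuclear total (−0.62, adjusted p = 0.0751) and with the other scalings tried. The genes described next had the smallest unadjusted p of this list and of 11 genes of mitochondrial biogenesis and content. Hspe1, the matrix co-chaperonin that folds imported proteins, read 677 and 641 in the 14-month WT hearts, 556 and 599 in the 14-month KO hearts, 2179 at 5 months in WT and 1731 at 5 months in KO, a difference of 1.65 (SE 0.115, adjusted p = 0.000154). Chchd4, the oxidoreductase that traps proteins in the intermembrane space, read 257 and 219 in the 14-month WT hearts, 227 and 260.0 in the 14-month KO hearts, 568 at 5 months in WT and 460.1 at 5 months in KO, a difference of 1.09 (SE 0.155, adjusted p = 0.00204). The 5-month hearts were highest for both. Minos1, a small subunit of the cristae-organising MICOS complex, read 2089.7 and 2001 in the 14-month WT hearts, 1597 and 1816 in the 14-month KO hearts, 4168 at 5 months in WT and 2745 at 5 months in KO, a difference of 0.86 (SE 0.129, adjusted p = 0.00244). By genotype those of smallest unadjusted p had fitted differences of 0.65 for Immp2l, an inner membrane peptidase, 0.56 for Ppargc1b, a coactivator of mitochondrial biogenesis, −0.38 for Minos1 and −0.26 for Clpx, a matrix protease subunit, each with an adjusted p of 0.745. Of the 11 genes of biogenesis and content, 4 passed by age, against 33.7% of all genes, 3 as higher and 1 as lower at 5 months, with a median of 0.22. The lower one was Cs, citrate synthase, whose activity is often used as a measure of mitochondrial content, named here after its value was seen. It read 20112 and 18628 in the 14-month WT hearts, 19736 and 19944 in the 14-month KO hearts, 15096 at 5 months in WT and 9109 at 5 months in KO. Its age difference was −0.74 (SE 0.179, adjusted p = 0.0160), and its interaction of −0.76 passed as deposited (adjusted p = 0.0429) but not with the nuclear total (−0.49, adjusted p = 0.0635) or quantile normalization (−0.54, adjusted p = 0.142). With upper-quartile scaling the interaction of Cs was −0.72 and kept its call. Vdac3, a pore of the outer membrane and a client of the TOM and SAM route, was one of the 3 genes called higher by age, at 3703 and 3489.5 in the 14-month WT hearts, 3433 and 3688 in the 14-month KO hearts, 7065 at 5 months in WT and 5955 at 5 months in KO.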

How the data were processed

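Hearts were frozen and RNA was extracted with Trizol, and libraries were made from total RNA by a standard Illumina protocol, per the labels' protocols. Reads were quantified with Salmon 1.5.2 and the build was mm10, per the submitters' processing notes. The sources used here name no normalization step. The values the authors deposited are a gene-level normalised signal, not whole counts, so the read depth behind a value is unknown and no counting interval is given. GENCODE M21 (GRCm38) gave symbols for 20122 of the 20254 identifiers and none for 132. A further 108 broken lines hold no values and were not used.

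Values were taken as log2(value + 1). Fold changes are on that scale, which understates changes of low genes. Genes with a value of at least 10 in at least 3 libraries were fitted together with limma 3.58.1 in R 4.3.3 (trend and robust options), with Benjamini-Hochberg adjustment over all 13823 genes and a threshold of 0.05. Genotype and age were fitted together (3 residual degrees of freedom) and their interaction in a further model. The code was tested on simulated data. SE is limma's moderated standard error. Transcript lengths and shared 31-base words came from GENCODE M21 transcripts, and a processed copy can draw reads from its gene.

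The members, the lists of other genes and the cell type markers were chosen with earlier results of these data known. Values in all hearts are given for genes past the threshold, the highest gene of each role, the 3 largest differences in each direction and paralogue pairs. Of the other genes, the 4 of smallest p by genotype and the 4 by age are named. Markers of cardiomyocytes, endothelium, fibroblasts, macrophages, smooth muscle, adipocytes, red cells, atria and skeletal muscle were summed per heart. Alternatives covered the pseudocount, the filter, the scaling, the variance model, limma-voom, covariates, the replicate block and each left-out library. Length and GC trends, added copies, and replicates 1 and 3 alone were added after the data were seen.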

Additional observations from a re-analysis of the deposited data

Results flagged for a closer look

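Among the 32 import genes, 1 had a heart that stood apart within the 4 hearts of 14 months. For Tomm6, the replicate 1 heart of KO read 488, against 418, 421 and 418 in the other 3; the gap to the nearest of the others was 0.954 of the whole range, above the 95% critical value for 4 samples (Dixon's gap ratio). Such a gap arises by chance in about 1 in 20 groups, so 1 of 32 is no more than that rate gives.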

How the results depend on the processing

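The number of import genes called by age was 17 to 22 over 19 alternatives, against 21, and 16 of the 21 kept their call in all of them; the other 5 were Mtx2, Timmdc1, Timm17a, Timm17b and Pam16. Leaving out 1 library at a time gave 19 to 22 calls and a median log2 age difference of 0.58 to 0.76. The share of all genes called by age moved with the setting. It was 33.7% in the main fit, 22.4% with no filter, 39.6% with the filter at 50 and 23.5% without WT replicate 1. With values rescaled to the total of nuclear genes, the median age difference was 0.43 (19 called, against 33.5% of all genes). The median of all genes shifted to −0.22, and the import genes lay 0.65 above it. In that scaling the median genotype difference turned to 0.041, with all genes at 0.081, and 1 gene, Tomm20, passed the interaction test (0.86, adjusted p = 0.0366), with 5.43% of all genes called. With length and GC trends removed the age median was 0.41. The cause of these shifts was not tested. With replicates 1 and 3 alone 17 genes were called by age.

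No import gene was called by genotype in any alternative, and the median was −0.13 to −0.0085 with 1 library left out. With the replicate block, 0 genes were called, the median was −0.065 and the smallest adjusted p was 0.886. To look for pairing, the log2 value of each gene was taken as its deviation from the mean of its genotype. These deviations hold the age difference. They correlated at 0.390, 0.383 and 0.617 for same-number libraries, and at 0.382 and 0.369 for libraries of unlike number at 14 months. With deviations taken within the 14-month hearts, the correlation for replicate 1 was 0.015. The number 3 is the 5-month age, so the numbers were not taken to pair the hearts. In both genotypes the number 2 heart was the one low in Y-linked values, at 54.9 (WT) and 82.2 (KO). The number 1 hearts of the same age read 2854 (WT) and 2496 (KO). The main fit has no term for this, and its part in the spread was not tested. Genotype differences of single genes turned for Pam16 with limma-voom (−0.23) and with Gm9803 added (−0.18), for Timm9 with replicates 1 and 3 alone (−0.068) and for Tomm34 at 14 months alone (0.10). With 1 library left out, Pam16 ranged from −0.48 to 0.85, Mtx1 from −0.10 to 0.28, Timm9 from −0.031 to 0.19 and Tomm34 from −0.36 to 0.10. The interaction could not be fitted without either 5-month heart, and where 1 such heart was left out of the age fit, the other was assumed to vary like the rest. Of 570 values of single genes under the alternatives, 539 kept their direction and call.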

Other observations

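Other marker lists also differed between hearts. The 6 adipocyte markers tested had a median log2 difference of KO minus WT of 0.71, with 0 of 6 called by limma. By replicate number their median was 1.32 and 1.77 at 14 months and −0.76 at 5 months, so the direction was not the same at both ages. The 5 red cell genes summed to 66820 in the replicate 1 heart of WT, against 2727 to 19386 in the other 5 hearts. The 6 fibroblast markers summed to 14078 to 16246 at 14 months, 15434 in the 5-month WT heart and 10454 in the 5-month KO heart. The 7 macrophage markers summed to 2798 to 4235 over the 6 hearts, the 6 smooth muscle and pericyte markers to 10973 to 17114, the 7 adipocyte markers to 6902 to 11595 and the 6 skeletal muscle markers in the table to 1131 to 4921.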
